A study of Mus musculus with 8 samples.

Results

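Potassium channel genes were described in mouse brown adipose tissue, a fat that burns fuel for warmth, as the 94 protein-coding genes of the deposited table whose symbol begins with Kcn and a further letter, out of 54532 genes in all. Tissue of 4 mice labelled TG (CLCF1-ATG), numbered 1, 2, 3 and 5, was set against that of 4 WT mice with the same numbers. The title concerns CLCF1, a cytokine of the interleukin-6 family, in brown adipocytes. Neither the promoter behind the CLCF1-ATG allele nor the strain, sex or age of the mice is given in the sources used here.

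Potassium channels let potassium leave or enter cells and thereby set the resting membrane potential. Most have pore-forming subunits, which are grouped by how they open: voltage-gated channels, inward rectifiers, two-pore-domain leak channels, and channels opened by calcium or sodium. Auxiliary subunits carry no pore and alter the trafficking or gating of the pore-forming ones. In mouse brown fat, noradrenaline depolarises the adipocyte, and the leak channel encoded by Kcnk3 is known to oppose that depolarisation.

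The symbols fell into 40 voltage-gated pore subunits, 13 auxiliary subunits of voltage-gated channels, 15 inward rectifiers, 14 two-pore-domain channels, 8 calcium- or sodium-activated pore subunits and 4 auxiliary subunits of the large-conductance calcium-activated (BK) channel. The sorting by symbol was checked against sequence. The signature of a potassium pore is its selectivity filter, a short stretch that lines the narrowest part of the pore. The longest coding sequence of each gene in GENCODE M21 was searched in frame for the codons of that signature: a threonine or serine codon, any codon, a glycine codon, a tyrosine or phenylalanine codon and a glycine codon. All 77 pore-forming members held the signature and all 17 auxiliary members lacked it. Outside the potassium channel genes it was found in 2.3% of 21477 coding genes. Of the 14 two-pore-domain genes 11 held it 2 times and 3 held it 1 time, whereas every other pore-forming member held it 1 time. The stretches below are from the genes on which the results turn, on the coding strand, with the codons of the filter in capitals and 15 bases on either side.
Kcnk3, first pore: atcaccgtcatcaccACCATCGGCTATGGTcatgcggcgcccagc
Kcnk3, second pore: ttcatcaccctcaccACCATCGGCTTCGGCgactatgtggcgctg
Kcns3: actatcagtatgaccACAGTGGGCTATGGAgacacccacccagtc
Kcna5: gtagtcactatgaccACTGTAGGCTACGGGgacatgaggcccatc
Kcnj8: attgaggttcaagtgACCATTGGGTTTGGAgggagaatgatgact
Kcnj15: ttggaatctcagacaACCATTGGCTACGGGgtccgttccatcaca
Kcnj14: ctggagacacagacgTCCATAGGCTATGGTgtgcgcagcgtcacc
The fourth codon in capitals is one for tyrosine (TAT or TAC) in Kcns3, Kcna5, Kcnj15, Kcnj14 and the first pore of Kcnk3, and one for phenylalanine (TTT or TTC) in Kcnj8 and the second pore of Kcnk3. The capitals of the second pore of Kcnk3 lie at chr5:30622202-30622216 (mm10, plus strand) and those of Kcns3 at chr12:11091575-11091589 (minus strand), both within a coding exon. The codons of the first pore of Kcnk3 are split by an intron.

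The values are FPKM, fragments scaled to gene length and to library size, so that levels of different genes can be compared. Recovered reads (the whole numbers behind the FPKM) came to 18494022 to 20183840 per TG library and 13734231 to 15751302 per WT library, of which 5154 to 5937 and 4403 to 4906 lay on potassium channel genes. All recovered reads were 0.822 to 0.883 times the library total behind the FPKM in TG and 1.02 to 1.22 times in WT. Clcf1, which checks the labels, stood at 84.5 ± 4.75 FPKM in TG and 2.15 ± 1.28 FPKM in WT (SD, n = 4 each). An exact permutation test, two-sided, gave p = 0.0286, which is the lowest value possible with 4 libraries a side. Changes were tested with limma on log2(FPKM + 1) for the 12508 genes that reached 0.5 FPKM in at least 4 libraries; a log2 change is TG minus WT on that scale, which understates the change of weakly expressed genes. Of all tested genes 44.1% passed an adjusted p of 0.05, 22.3% higher and 21.8% lower in TG. Brown adipocyte markers were lower in TG (6 of 8 tested, summed level 669.0 to 1070.2 FPKM in TG and 6951 to 9860 FPKM in WT), while markers of all adipocytes were higher (5 of 6). Skeletal muscle markers set TG 5 and WT 2 apart: summed over 9 genes, they reached 1636 and 2916 FPKM in these libraries, and Acta1 stood at 43.8 to 74.0 FPKM in the other TG libraries and at 8.99 to 77.5 FPKM in the other WT libraries. In whole tissue, fewer cells of a type and less RNA per cell cannot be told apart.

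Of the 94 potassium channel genes 14 passed the filter on low values, 8 of which were higher in TG, 4 lower and 2 did not pass the test, so that 85.7% of the tested channel genes were called against 44.1% of all tested genes. The median log2 change of the 14 was 0.70, against 0.01 over all 12508 tested genes. With no filter the fit held 79 channel genes, whose median log2 change was 7.15e-05, against -0.0064 over all 26296 genes with a read. Of the 79, 17 were called (21.5%, against 18.8% of all genes in that fit), a share near that of all genes. These counts lean on the filter: 6 of the 14 reached 0.5 FPKM in all 4 TG libraries but in fewer than 4 WT libraries, and 5 of the 8 higher genes were among them. The filter itself takes no account of genotype, and 1 of the 14 reached 0.5 FPKM in all 4 WT libraries but in fewer TG libraries. Because more of the 14 entered through the TG libraries, nothing is read from these shares. In 11 of the 14 the TG and WT values did not overlap, against 42.6% of all tested genes. Dividing by all recovered reads instead of using the deposited scaling shifted the median log2 change of all genes to 0.32, so that 79.7% of called genes were higher against 50.6% as reported. Under that scaling 9 potassium channel genes were higher and 4 lower in TG. Measured from the shifted median, the 12 called genes kept their direction there.

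The make-up of the channel transcripts differed between the genotypes. Summed over all 94 genes, the level was 57.4 ± 2.62 FPKM in TG and 96.0 ± 10.4 FPKM in WT (SD, n = 4 each). Kcnk3 alone made up 17.1% ± 4.22 of the sum in TG and 60.6% ± 2.86 in WT. Without Kcnk3 the sums were 42.5 to 50.8 FPKM in TG and 29.7 to 43.6 FPKM in WT, and the ranges overlapped at the deposited scaling. Kcns3 made up 30.4% ± 4.09 in TG and 7.36% ± 0.94 in WT, and Kcnj15 12.3% ± 4.38 in TG and 1.22% ± 0.323 in WT. By class, two-pore-domain channels held 24.5% ± 3.47 of the sum in TG and 62.8% ± 2.64 in WT, and voltage-gated pore subunits 44.98% ± 2.65 in TG and 19.4% ± 2.30 in WT. At the deposited scaling, voltage-gated pore subunits summed to 25.7 FPKM in TG and 18.6 FPKM in WT on average. Kcns3 alone gave 17.3 FPKM of this in TG and 7.004 FPKM in WT. Its rise exceeded that of its class, so the other members together were lower in TG at that scaling. A fall of Kcnk3 by itself raises the shares of all other genes. These shares do not depend on how the libraries were scaled. The sums do: division by all recovered reads would raise those of TG and lower those of WT. The gap between the full sums and the overlap without Kcnk3 therefore hold for the deposited scaling only.

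**Figure D1:**
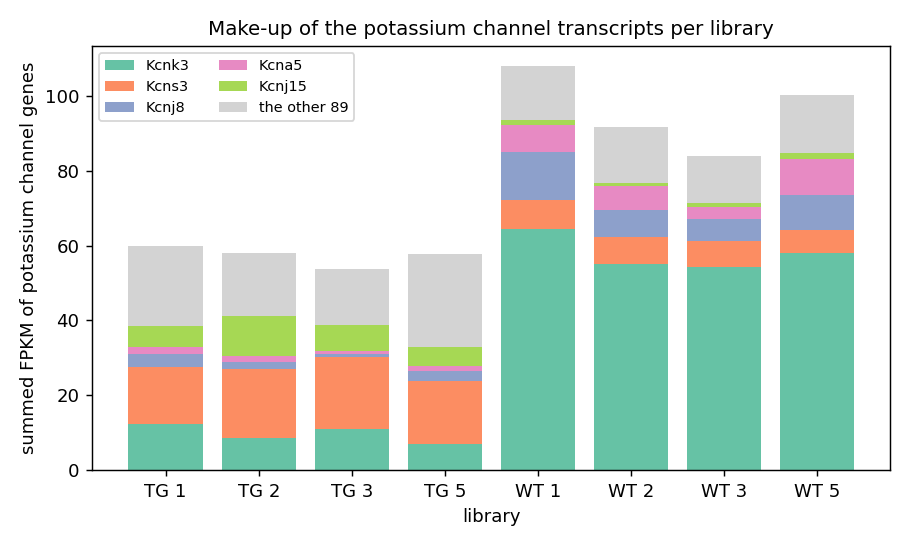
Summed FPKM of the 94 potassium channel genes in each library (bars), split into the 5 most abundant genes and the other 89; libraries run from TG on the left to WT on the right. Kcnk3 is the largest piece in each WT library and Kcns3 the largest named piece in each TG library.

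The order of the members changed with it. In TG the most abundant was Kcns3 at 17.3 FPKM, whose lowest library stood above the highest of Kcnk3, which came next at 9.80 FPKM, followed by Kcnj15 at 7.05 FPKM. The TG libraries of Kcnk3 and Kcnj15 overlapped. In WT Kcnk3 led at 57.9 FPKM, and Kcnj8, Kcns3 and Kcna5 came next at 8.81, 7.004 and 6.57 FPKM with overlapping libraries. All other members averaged under 3 FPKM in both genotypes.

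Two-pore-domain channels pass the background leak of potassium. Kcnk3, the acid-sensitive leak channel (ENSMUSG00000049265, chromosome 5, 30588170 to 30625271, plus strand), had 12.3, 8.73, 11.1 and 7.04 FPKM in the TG libraries, against 64.4, 55.1, 54.3 and 58.1 FPKM in the WT libraries. All 4 TG libraries lay far below all 4 WT libraries. The mean was 5.91-fold lower in TG (log2 change -2.47, SE 0.158, limma adjusted p = 4.69e-06). The brown adipocyte markers given above were lower in the same libraries, and their part in the fall of Kcnk3 was not tested. A gene on the opposite strand, Gm9899, overlaps Kcnk3 with at most 463 reads in a library, and without a stated strand setting reads of the pair cannot be told apart.

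Of the other 3 tested members of the class, 2 rose and 1 did not pass. Kcnk2, a leak channel opened by stretch and by fatty acids, had 1.49, 1.43, 1.39 and 1.88 FPKM in the TG libraries, against 0.635, 0.662, 0.441 and 0.477 FPKM in the WT libraries. The genotypes did not overlap, and the TG mean was 2.79-fold higher (log2 change 0.71, SE 0.108, limma adjusted p = 0.000651). Kcnk2 overlaps Pdcd5-ps, a pseudogene annotated on the same strand at 24.8 to 55.3 FPKM, so its value is uncertain. Kcnk13, a leak channel inhibited by halothane and known from microglia, had 1.901, 1.94, 1.21 and 2.73 FPKM in the TG libraries, against 0.600, 0.191, 0.387 and 0.926 FPKM in the WT libraries. Every TG library exceeded every WT library, and the TG mean was 3.70-fold higher (log2 change 0.95, SE 0.191, limma adjusted p = 0.00319). Macrophage markers, the related cell type on the lists, had 3 of 6 higher in TG, with a summed level of 105.9 to 129.5 FPKM in TG and 61.9 to 123.2 FPKM in WT; their part was not tested. Kcnk6, a widely expressed member of the class, had 0.839, 0.489, 0.369 and 0.441 FPKM in the TG libraries, against 0.654, 0.537, 0.525 and 0.589 FPKM in the WT libraries. TG 1 was above all WT libraries and the other 3 TG libraries below them, and the difference did not pass (log2 change -0.05, SE 0.117, limma adjusted p = 0.768).

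Inward rectifiers pass potassium more easily into the cell than out of it. Kcnj8, the pore of the ATP-sensitive channel of vascular smooth muscle and pericytes (ENSMUSG00000030247, chromosome 6, 142564837 to 142571614, minus strand), had 3.36, 1.96, 0.996 and 2.60 FPKM in the TG libraries, against 12.9, 7.26, 5.84 and 9.22 FPKM in the WT libraries. No TG library reached the lowest WT library. The mean was 3.95-fold lower (log2 change -1.61, SE 0.271, limma adjusted p = 0.00119). Abcc9, the sulfonylurea receptor that completes this channel, had 4.39, 4.62, 3.09 and 4.26 FPKM in the TG libraries, against 3.65, 3.55, 2.58 and 2.62 FPKM in the WT libraries (log2 change 0.31, SE 0.143, limma adjusted p = 0.103). Its call changed to higher with division by all recovered reads, with voom on the reads and without TG 3. Whether the changes of Kcnj8 and Abcc9 differ was not tested. Kcnj2, the classical strong inward rectifier, was below the filter, with 0.308, 0.104, 0.129 and 0.465 FPKM in the TG libraries, against 0.0624, 0.587, 0.235 and 0.738 FPKM in the WT libraries. Its groups overlapped. Kcnj11, the pore of the ATP-sensitive channel of pancreatic beta cells and muscle, lay below the filter, with 0, 0.0257, 0 and 0.320 FPKM in the TG libraries, against 0.600, 1.01, 0.511 and 0.143 FPKM in the WT libraries, and the groups overlapped through TG 5 alone. TG 5 and WT 2, which skeletal muscle markers set apart, were the highest of their groups for Kcnj11, and the part of those markers was not tested.

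Kcnj15, an inward rectifier best known from kidney (ENSMUSG00000062609, chromosome 16, 95257558 to 95300260, plus strand), had 5.71, 10.7, 6.84 and 5.02 FPKM in the TG libraries, against 1.38, 0.812, 0.906 and 1.65 FPKM in the WT libraries. The lowest TG library was above 3 times the highest WT library. The mean was 5.94-fold higher (log2 change 1.85, SE 0.213, limma adjusted p = 0.000124). Kcnj14, of the strongly rectifying subfamily, had 1.10, 1.04, 0.660 and 1.16 FPKM in the TG libraries, against 0.0625, 0.0547, 0 and 0.161 FPKM in the WT libraries. It rested on 244 reads over the TG libraries and 9 reads over the WT libraries, and it entered the test through the TG libraries alone (limma adjusted p = 0.000274, with means 14.2-fold higher in TG).

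Voltage-gated pore subunits open on depolarisation. Kcns3, a subunit that forms no channel alone but joins and modifies those of other voltage-gated subunits (ENSMUSG00000043673, chromosome 12, 11090202 to 11151056, minus strand), had 15.3, 18.2, 19.0 and 16.8 FPKM in the TG libraries, against 7.70, 7.09, 7.04 and 6.18 FPKM in the WT libraries. The genotypes were far apart and each was tight. The mean was 2.47-fold higher (log2 change 1.19, SE 0.105, limma adjusted p = 2.46e-05).

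Kcna5, a delayed rectifier of the heart's atria and of vascular smooth muscle (ENSMUSG00000045534, chromosome 6, 126532551 to 126535412, minus strand), had 1.92, 1.68, 0.826 and 1.36 FPKM in the TG libraries, against 7.15, 6.36, 3.21 and 9.55 FPKM in the WT libraries. All TG libraries lay below all WT libraries, of which WT 3 was the lowest. The mean was 4.54-fold lower (log2 change -1.58, SE 0.265, limma adjusted p = 0.00116).

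Markers of vessel cells moved with Kcnj8 and Kcna5. Of 8 tested smooth muscle and pericyte markers 6 were lower in TG, Cspg4 was higher and Des did not pass, with summed levels over 9 genes of 42.1 to 93.4 FPKM in TG and 126.4 to 215.5 FPKM in WT. The highest sums were those of TG 5 and WT 2, the libraries that skeletal muscle markers set apart. Des stood at 37.0 FPKM in TG 5 and 70.9 FPKM in WT 2. Elsewhere Des ran from 5.53 to 8.48 FPKM in TG and from 12.1 to 25.6 FPKM in WT. Tagln and Cnn1 were listed at 0 in at least 1 library. All 7 endothelial markers were lower, with summed levels of 22.3 to 41.6 FPKM in TG and 127.5 to 282.01 FPKM in WT. Their part in the falls of Kcnj8 and Kcna5 was not tested.

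Among auxiliary subunits, those of the Kcne family are small proteins that cross the membrane a single time and alter Kcnq1 and other channels. Kcne1l, also known as Kcne5, had 1.71, 1.38, 0.936 and 3.22 FPKM in the TG libraries, against 0.770, 0.385, 0.341 and 0.340 FPKM in the WT libraries. The TG libraries lay above the WT libraries (log2 change 0.90, SE 0.222, limma adjusted p = 0.00927), on 255 reads over TG and 35 reads over WT. Kcne4 had 2.70, 0.764, 1.04 and 3.33 FPKM in the TG libraries, against 0.479, 0.420, 1.73 and 0.493 FPKM in the WT libraries. Kcne4 is known to restrain Kcnq1. Its groups overlapped at WT 3, and the difference did not pass (log2 change 0.69, SE 0.321, limma adjusted p = 0.11); without WT 3 it passed (limma adjusted p = 0.0414), as it did with division by all recovered reads (limma adjusted p = 0.0368). Over its 16 alternatives the adjusted p ran between 0.0368 and 0.418 in limma. Kcnn1, a small-conductance calcium-activated channel and the only tested member of its class, had 0.732, 1.12, 0.926 and 0.904 FPKM in the TG libraries, against 1.83, 2.19, 2.71 and 1.39 FPKM in the WT libraries. The genotypes did not overlap, and the TG mean was 2.20-fold lower (log2 change -0.64, SE 0.145, limma adjusted p = 0.00585).

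**Figure D2:**
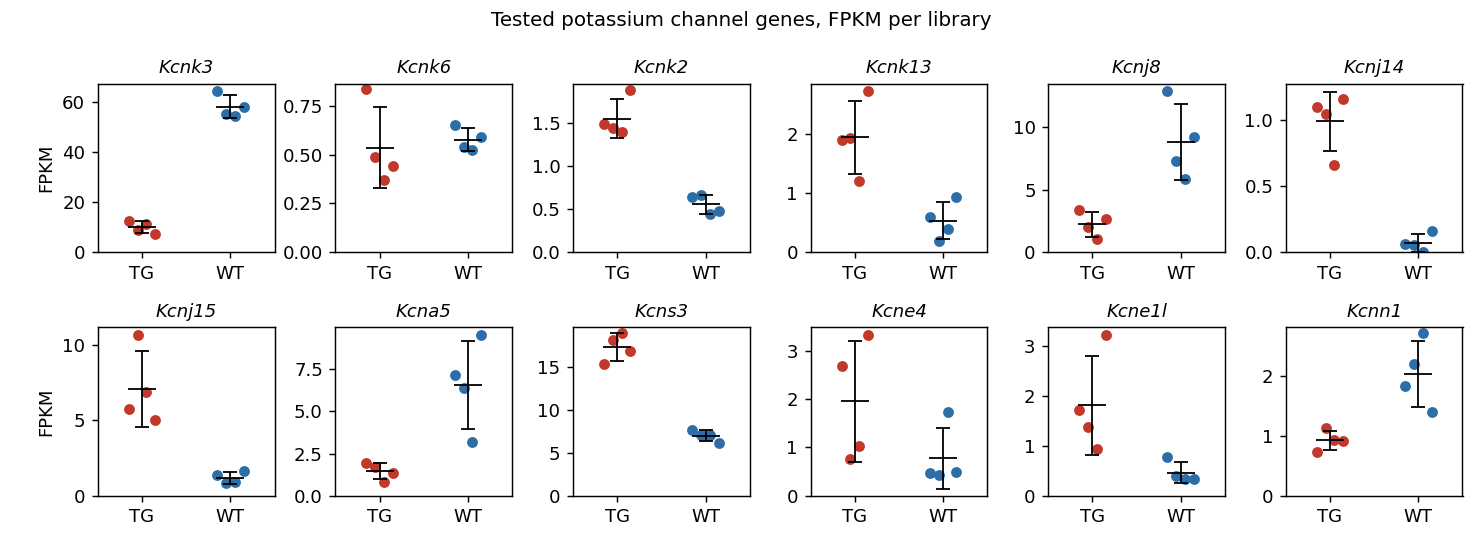
FPKM (vertical axes, from 0) of 12 tested potassium channel genes in 4 TG and 4 WT libraries; points are libraries, long dashes the mean and bars the SD. Among the genes plotted, the groups overlap for Kcnk6 and Kcne4.

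**Figure D3:**
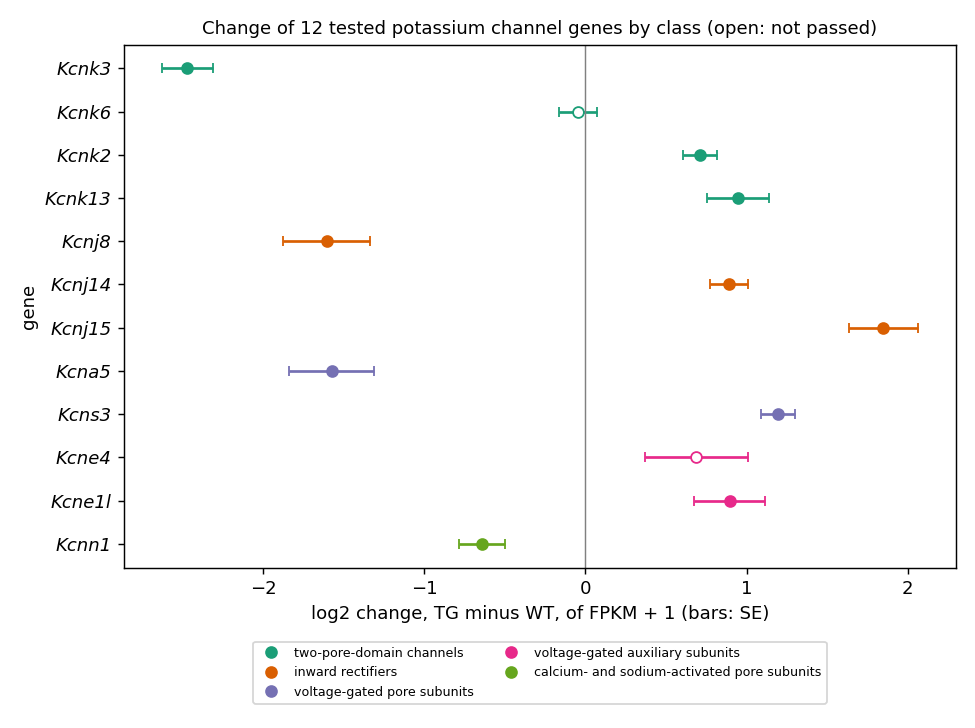
Log2 change, TG minus WT, of FPKM + 1 (horizontal axis, bars are SE) for the same 12 genes (vertical axis), coloured by channel class; open circles did not pass an adjusted p of 0.05. Two-pore-domain channels, inward rectifiers and voltage-gated pore subunits each hold genes on both sides of 0.

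By class, the calls were mixed. Voltage-gated pore subunits had 3 higher and 1 lower of 4 tested out of 40 (median log2 change 0.59). Inward rectifiers had 2 higher and 1 lower of 3 tested out of 15 (0.89, which is the value of Kcnj14). Two-pore-domain channels had 2 higher, 1 lower and 1 not passing of 4 tested out of 14 (0.33). Auxiliary subunits of voltage-gated channels had 1 higher and 1 not passing of 2 tested out of 13. Calcium- or sodium-activated pore subunits had 1 lower of 1 tested out of 8. None of the 4 BK auxiliary subunits was tested, and the most abundant of them, Kcnmb4, had 3 reads over the TG libraries and 0 over the WT libraries. These counts are too small to set the classes apart. The medians rest in part on genes that reached 0.5 FPKM in more TG than WT libraries, such as Kcnj14, Kcnk2 and Kcnk13.

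The other 80 members stayed below the filter, and 41 of the 94 were under 0.1 FPKM in every library. No read was recovered for 15 of them in any library. Only 10 of the 80 reached 0.5 FPKM in any library. In 10 of the 80 the groups did not overlap, 5 with TG above and 5 with TG below WT. Counted over the 65 of them with a read, that was 15.4%, against 5.88% of the 13788 genes below the filter with a read. Those 13788 genes were of any type, not only protein-coding. A gene at 0 in a library of each group cannot be free of overlap, so nothing is read from this gap. The fit with no filter called 6 of these members. The other 4 were Kcnj16 and Kcnh4, with TG above, and Kcnk5 and Kcnd3, with TG below.

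Of the 6, Kcne3, which partners Kcnq1 and other voltage-gated channels, had 0.0472, 0.0531, 0.148 and 0.147 FPKM in the TG libraries, against 1.38, 0.334, 0.761 and 1.47 FPKM in the WT libraries. The TG libraries held 16 reads in all and the WT libraries 85 reads (limma adjusted p = 0.0220). Kcna2, a channel known from axons, had 0.109, 0.0555, 0.0515 and 0.0550 FPKM in the TG libraries, against 0.435, 0.331, 0.373 and 1.12 FPKM in the WT libraries, with WT 5 well above the rest (limma adjusted p = 0.0380). In the same fit 1 of 7 Schwann cell markers was lower in TG, Sox10 (limma adjusted p = 0.0160), and none of the 5 neuron markers with a read passed. Sox10 had 0.192, 0.108, 0.0287 and 0.0429 FPKM in the TG libraries, against 0.640, 0.439, 0.493 and 0.258 FPKM in the WT libraries, so its groups, like those of Kcna2, did not overlap. The summed Schwann cell markers ran from 6.03 to 8.41 FPKM in TG and from 8.28 to 9.92 FPKM in WT, and their part in the fall of Kcna2 was not tested. The summed neuron markers ran from 0.844 to 1.39 FPKM in TG and from 0.421 to 1.42 FPKM in WT, with Th and Dbh listed at 0 in every library. Kcnh2, the delayed rectifier that repolarises the heart, had 0.649, 0.361, 0.967 and 1.41 FPKM in the TG libraries, against 0.228, 0.123, 0.0155 and 0.144 FPKM in the WT libraries. Each TG library was above each WT library (limma adjusted p = 0.0272). Kcng2, which like Kcns3 forms no channel alone, had 0.477, 0.269, 0.249 and 0.350 FPKM in the TG libraries, against 0.0568, 0.0995, 0.126 and 0.175 FPKM in the WT libraries (limma adjusted p = 0.0293). Kcnip1, a calcium sensor of voltage-gated channels, had 62 reads over the TG libraries and none over the WT libraries (limma adjusted p = 0.0280). Set against a floor of 3 reads spread over the WT libraries, it was at least 11.2-fold higher in TG. Kcna6, of the same family as Kcna2, averaged 0.0218 ± 0.0242 FPKM in TG and 0.111 ± 0.0235 FPKM in WT (SD, n = 4 each), on 12 reads over TG and 33 reads over WT (limma adjusted p = 0.0193).

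The libraries TG 5 and WT 2, which the skeletal muscle markers set apart, were also the highest of their groups for some low members. Kcna7, a channel known from skeletal muscle, had 0.173, 0.173, 0.261 and 0.700 FPKM in the TG libraries, against 0.117, 1.19, 0.276 and 0 FPKM in the WT libraries. The groups overlapped, and the part of the muscle markers was not tested. Kcnj12, a strong inward rectifier of muscle, showed the same libraries highest, with 0.0305, 0.103, 0 and 0.412 FPKM in the TG libraries, against 0, 0.487, 0.0274 and 0 FPKM in the WT libraries. Tmem38a, a potassium-conducting channel of the muscle's calcium store, stood at 14.6 FPKM in TG 5 and 16.8 FPKM in WT 2 and at 1.43 to 3.15 FPKM elsewhere. Kcnn4, the calcium-activated channel of lymphocytes and red cells, had 0.385, 0.545, 0.120 and 0.213 FPKM in the TG libraries, against 0.315, 0.349, 0.250 and 0.478 FPKM in the WT libraries, with overlapping groups. Of 3 tested T cell markers 2 were higher in TG, against 22.3% of all tested genes, a count too small to read. Summed over 6 genes, the T cell markers ran from 1.85 to 7.22 FPKM in TG and from 0.679 to 3.79 FPKM in WT, and the ranges overlapped.

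Kcnk5, an acid- and alkali-sensitive leak channel, had 0.0123, 0.0139, 0.0643 and 0.0256 FPKM in the TG libraries, against 0.0748, 0.197, 0.155 and 0.513 FPKM in the WT libraries. All TG values were below the WT values, on 9 reads over TG and 39 reads over WT. Kcnab2, a cytoplasmic auxiliary subunit, had 0.782, 1.20, 0.675 and 0.407 FPKM in the TG libraries, against 0.411, 0.227, 0.121 and 0.454 FPKM in the WT libraries, and its groups overlapped.

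**Figure D4:**
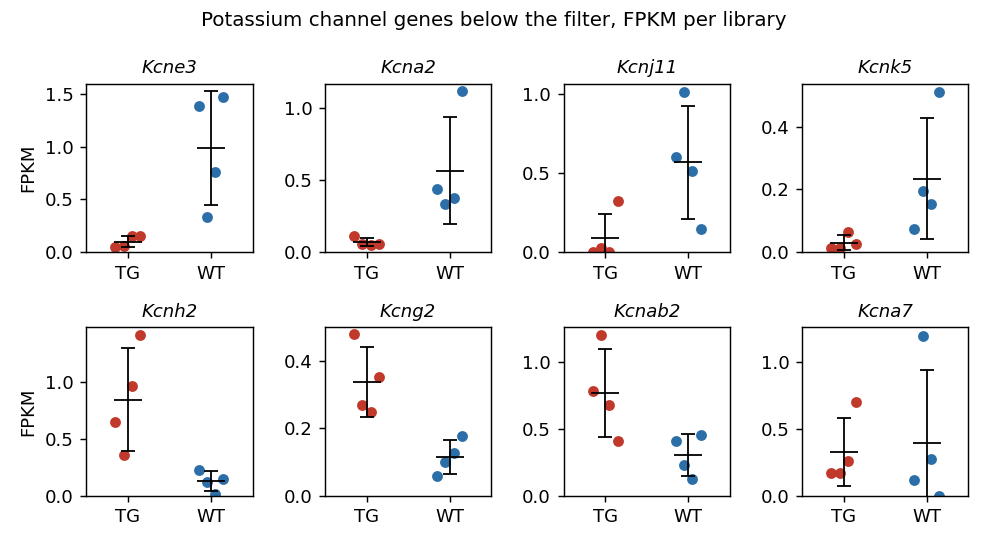
FPKM (vertical axes, from 0) of 8 potassium channel genes that did not pass the filter, in 4 TG and 4 WT libraries; points are libraries, long dashes the mean and bars the SD. Kcne3, Kcna2 and Kcnk5 lie lower and Kcnh2 and Kcng2 higher in every TG library than in any WT library, while Kcna7 is highest in 1 library of each group.

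Proteins that work with potassium channels, or conduct potassium without a Kcn symbol, were listed separately. Of 17 genes 7 were tested and 1 rose, while 0 fell in limma (also 0 at an unadjusted p under 0.05 and 0 with voom on the recovered reads), with a median log2 change of 0.06. Over all tested genes 22.3% rose and 21.8% fell, with a median of 0.01. Tmem175, a potassium channel of endosomes and lysosomes, was the gene that rose, with 2.58, 2.35, 1.79 and 2.09 FPKM in the TG libraries, against 1.07, 0.740, 0.736 and 0.973 FPKM in the WT libraries (log2 change 0.77, SE 0.118, limma adjusted p = 0.000719). Abcc8, which completes the ATP-sensitive channel of beta cells, averaged 0.0121 ± 0.0178 FPKM in TG and 0.120 ± 0.121 FPKM in WT (SD, n = 4 each).

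The sodium-potassium pump and the cotransporters, which load cells with the potassium that channels release, were taken as a further list. Of 22 genes 15 were tested, of which 8 fell, 2 rose and 5 missed the threshold. Over all tested genes 21.8% fell and 22.3% rose. The median log2 change of the list was -0.40, against 0.01 over all tested genes. The regulatory subunit gene Atp1b1 fell by 1.30 on the log2 scale, the sodium-potassium-chloride cotransporter gene Slc12a2 by 0.77 and Letm1, of the mitochondrial potassium-proton exchange, by 0.90. The risers were Fxyd6, a pump modulator, with a log2 change of 1.44, and Atp1a4, the catalytic subunit known from sperm. Atp1a4 had 3.58, 2.24, 1.74 and 2.76 FPKM in the TG libraries, against 0, 0, 0.0205 and 0 FPKM in the WT libraries, on 865 reads over TG and 1 read over WT.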

How the data were processed

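RNA was sequenced from brown adipose tissue of 4 TG and 4 WT mice. The values are FPKM as deposited by the authors, on mm10. Per the submitters' processing notes, bcl2fastq, HISAT2 2.0.5 and featureCounts 1.5.0-p3 were used. Neither the annotation release nor the strand setting is given in the sources used here, so overlapping and antisense genes cannot be separated. Low FPKM values were whole multiples of the value of 1 read, and the reads recovered from them lay within 7.92e-09 of whole numbers. Gene lengths came from the deposited table.

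Genes at 0.5 FPKM or more in at least 4 libraries were tested on log2(FPKM + 1) with limma 3.58.1 in R 4.3.3, with Benjamini-Hochberg adjustment over all tested genes and a threshold of 0.05. The procedure was tested on simulated data. Replicate error is the SD over mice; recovered reads and floors of 3 reads cover counting error only. Alternatives were other pseudocounts, filters and scalings, voom on recovered reads, a replicate block and leaving out libraries. All 94 channel genes were found in GENCODE M21, 90 at the same coordinates, and its coding sequences gave the printed stretches. By the rule for named genes any channel gene could be named, with values in every library for those that passed and for the most abundant of each class that did not, others by range and count, and genes of the partner, pump and marker lists could be named with values. Kcne3, Kcna2, Kcnj11, Kcnk5, Kcng2, Kcna7, Kcnj12 and Kcnab2 were given in full after their values were seen. Some genes of these lists are not reported here, although they stay in the counts and sums. Members and lists were chosen with earlier results of these data known. Plots were drawn with matplotlib 3.10.9.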

Additional observations from a re-analysis of the deposited data

Results flagged for a closer look

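The 20 channel genes that were tested, or called with no filter, gave 40 groups of 4 libraries. In each group the extreme library was set against the rest by its gap as a share of the group's range, on log2(FPKM + 1). Kcnip1 in WT, at 0 in every library, had no such ratio. Dixon's critical value for 4 samples was the limit. Chance alone exceeds it in about 1 of 20 groups, and 4 did. Kcna2 did so in both genotypes: TG 1 stood apart at 0.109 FPKM against 0.0515 to 0.0555 FPKM in the other TG libraries (0.927959), and WT 5 at 1.12 FPKM against 0.331 to 0.435 FPKM in the other WT libraries (0.837565). For Kcne1l, WT 1 stood apart at 0.770 FPKM against 0.340 to 0.385 FPKM (0.879595). For Kcne4, WT 3 stood apart at 1.73 FPKM against 0.420 to 0.493 FPKM (0.922659), and without it Kcne4 passed the test.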

How the results depend on the processing

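Of the 12 called channel genes, 11 kept their direction and their call in every alternative that tested them. A filter of 1 FPKM left Kcne1l and Kcnj14 untested. With no filter 10 of 79 channel genes were higher and 7 lower (21.5% called, against 18.8% of all genes there); leaving out single libraries gave 7 to 8 higher and 4 lower. Same-numbered TG and WT libraries correlated at -0.238 to 0.0373 in their deviations, so the numbers were not taken to pair mice. The fit with a replicate block gave 8 higher and 4 lower channel genes and, over all genes, 2389 higher and 2458 lower, and changed no call of a channel gene. Division by all recovered reads gave 5570 higher and 1416 lower genes. Kcnk6, never called, had log2 changes of -0.14 to 0.0042 when single libraries were left out, with the positive value without TG 3, and 0.11 with division by all reads. In the list of partner proteins 2 rose with division by all reads and with voom (Abcc9 added) and without both WT 2 and TG 5 (Hcn2 added). Leaving out single libraries gave 1 to 2 higher (Abcc9 added without TG 3, Hcn2 without WT 2) and 0 to 1 lower (Tmem38b without WT 5). The cause of these shifts was not tested. Depth limits the genes below the filter, where 15 had no read.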
